A study of Mus musculus with 2 samples.

Results

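The 10 genes described are those of fibroblast growth factor (FGF) signalling in the stroma of the mouse submandibular gland: the 5 ligand genes Fgf1, Fgf2, Fgf7, Fgf10 and Fgf18 and the 5 receptor genes Fgfr1, Fgfr2, Fgfr3, Fgfr4 and Fgfrl1. They were chosen by name from tables of 20140 genes, with earlier results of these data known. Values were found for 9 of the 10, and Fgfr4 was not analysed here. The mice were female C57BL6/J animals aged 14 weeks. In the ligated group a metal clip had closed the ducts that drain the submandibular and sublingual glands for 14 days, and in the mock group the ducts were exposed without a clip and the animals recovered for the same 14 days. Each group was 1 droplet single-cell library (10X Genomics) prepared from 2 harvested submandibular and sublingual glands, after repeated bead depletion of EpCAM-bearing epithelial cells and Ter119-bearing red blood cells and after removal of dead cells. Both groups carry that depletion, so epithelial cells are represented only by those that escaped it.

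FGFs are secreted proteins that bind receptor tyrosine kinases at the cell surface together with heparan sulfate chains, and the bound receptor activates the Ras and MAP kinase cascade, which in turn switches on its own inhibitors (the Sprouty, Spred and Dusp6 genes) and the Etv transcription factors. In the developing salivary gland Fgf10 and Fgf7 come from the mesenchyme and act on the epithelium through the IIIb splice form of Fgfr2, and mice without Fgf10 or that receptor form do not form salivary glands. Fgfr1, Fgfr2, Fgfr3 and Fgfr4 are kinases, whereas Fgfrl1 binds FGFs but lacks the kinase domain. The deposited values are per gene and do not separate splice forms.

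Each value gives the UMIs of a gene (unique molecular identifiers, each marking 1 captured RNA molecule) per 10000 UMIs of a cell, averaged within a cluster. There were 12 clusters of all cells and 5 clusters of a subset that the authors named after Pdgfr and Gli1. Cell numbers recovered from the means came to 4199 mock and 11406 ligated cells. Distinct UMI totals read from the means numbered 623 in the mock (median 6572) and 2264 in the ligated library (median 6490). These totals favour deep cells and are not a count of cells. In cluster 11 there were 71 for 59 ligated cells, so some are not true totals, and what rests on them is approximate. By markers, cluster 3 was fibroblast-like (188 mock and 1149 ligated cells, 10 of 10 fibroblast markers detected), clusters 0 and 4 endothelial-like (2363 and 2948 cells, and 226 and 531 cells), cluster 6 mural-like, meaning pericytes and vascular smooth muscle (161 and 420 cells), cluster 9 Schwann-like (17 and 271 cells) and cluster 7 ductal-like (201 and 278 cells). In the subset, cluster 0 was fibroblast-like (167 and 949 cells), cluster 2 mural-like (128 and 274 cells) and cluster 3 endothelial-like (82 and 260 cells). The subset comes from the same libraries, so its values are no separate measurement. With 1 library per group there is no replicate spread and no test. The intervals below are approximate 95% Poisson intervals, worked out from the cell number and the lower quartile of the recovered UMI totals. They cover counting error only and are too narrow. A mean over a cluster does not tell fewer expressing cells from less RNA per cell.

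The difference between the groups is log2((ligated + 0.1)/(mock + 0.1)). A gene is called past the size rule where the larger of both values reaches 0.5 and the difference reaches 1 or -1, which is a 2-fold change on that scale. Clusters were compared where each library had at least 50 cells, which left 9 clusters of all cells and 3 of the subset.

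Of the ligands, Fgf10, Fgf7 and Fgf18 were found almost wholly in the fibroblast-like cluster, and the stretches before their transcription starts are shown because the 3 genes share this cell population but differed in how far their levels moved. Each is 250 bases of the RefSeq promoter table (GRCm38.p6), 5′ to 3′ on the gene's own strand and ending at the base before the start. Capitals mark a GC box (GGGCGG, here read on the other strand) or a CCAAT box. The Fgf10 window precedes a start that lies inside the span GENCODE gives for the gene. It is at chr13:118714449-118714698 on the plus strand, with the Fgf18 window at chr11:33147401-33147650 on the minus strand and the Fgf7 window at chr2:126034408-126034657 on the plus strand.
Fgf10: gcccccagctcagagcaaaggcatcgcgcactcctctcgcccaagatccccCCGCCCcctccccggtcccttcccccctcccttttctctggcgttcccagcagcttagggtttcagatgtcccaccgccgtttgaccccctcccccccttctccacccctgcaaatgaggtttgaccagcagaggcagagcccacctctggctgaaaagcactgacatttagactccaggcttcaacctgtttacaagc
Fgf18: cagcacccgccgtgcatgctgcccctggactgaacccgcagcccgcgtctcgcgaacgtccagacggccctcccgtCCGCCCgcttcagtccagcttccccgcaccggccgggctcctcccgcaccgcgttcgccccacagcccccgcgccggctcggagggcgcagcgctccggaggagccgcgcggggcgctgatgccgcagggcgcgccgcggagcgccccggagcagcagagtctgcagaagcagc
Fgf7: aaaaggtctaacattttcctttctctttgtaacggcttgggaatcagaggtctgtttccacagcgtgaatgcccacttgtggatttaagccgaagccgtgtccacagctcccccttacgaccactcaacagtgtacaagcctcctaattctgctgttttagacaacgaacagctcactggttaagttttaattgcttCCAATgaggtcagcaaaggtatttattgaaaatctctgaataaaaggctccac

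The Fgf10 and Fgf18 windows each held 1 GC box, whose first base lay at -199 in Fgf10 and -174 in Fgf18, and the Fgf7 window held 1 CCAAT box at -53. GC made up 61.2% of the Fgf10 window, 77.2% of the Fgf18 window and 43.6% of the Fgf7 window. Of 32851 windows of this length in the same table, 32.74% held a GC box and 33.85% a CCAAT box on either strand, so neither match sets these windows apart. The letters TATAAA (in 12.37% of windows), the AP-1 site TGANTCA (6.749%) and the GLI site TGGGTGGTC (0.2253%) were in none of the 3 windows. The matches describe letters, not bound sites. Promoter entries were found for 8 of the 10 genes, and Fgf1 and Fgfr1 had none.

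Fgf10 was lower in the ligated fibroblast-like cells, and it was the only one of the 9 genes past the size rule in any compared cluster. This gene, on chromosome 13 (GRCm38, 118669791 to 118792115, plus strand), encodes a mesenchymal ligand of epithelial Fgfr2. Its level in cluster 3 was 4.24 in the mock library (interval 3.96 to 4.54) and 0.662 in the ligated library (0.617 to 0.71), a difference of -2.51 and a mock level 6.4 times the ligated one. The mock level lies far above the ligated one and the counting intervals do not overlap. In subset cluster 0 the levels were 4.59 (4.28 to 4.93) and 0.703 (0.647 to 0.763), a difference of -2.55. The subset comes from the same libraries, so its values are no separate measurement of the drop. Across all genes at 0.5 or more, 9.78% were past the size rule in cluster 3 (368 of 3762) and 10.1% in subset cluster 0 (377 of 3749), in either direction. Of the FGF genes tested there, 1 of 4 was past it in cluster 3 and 1 of 3 in subset cluster 0. By size, the fall of Fgf10 ranked 10 among 3686 genes listed in both libraries in cluster 3 and 11 among 3667 in subset cluster 0.

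**Figure D1:**
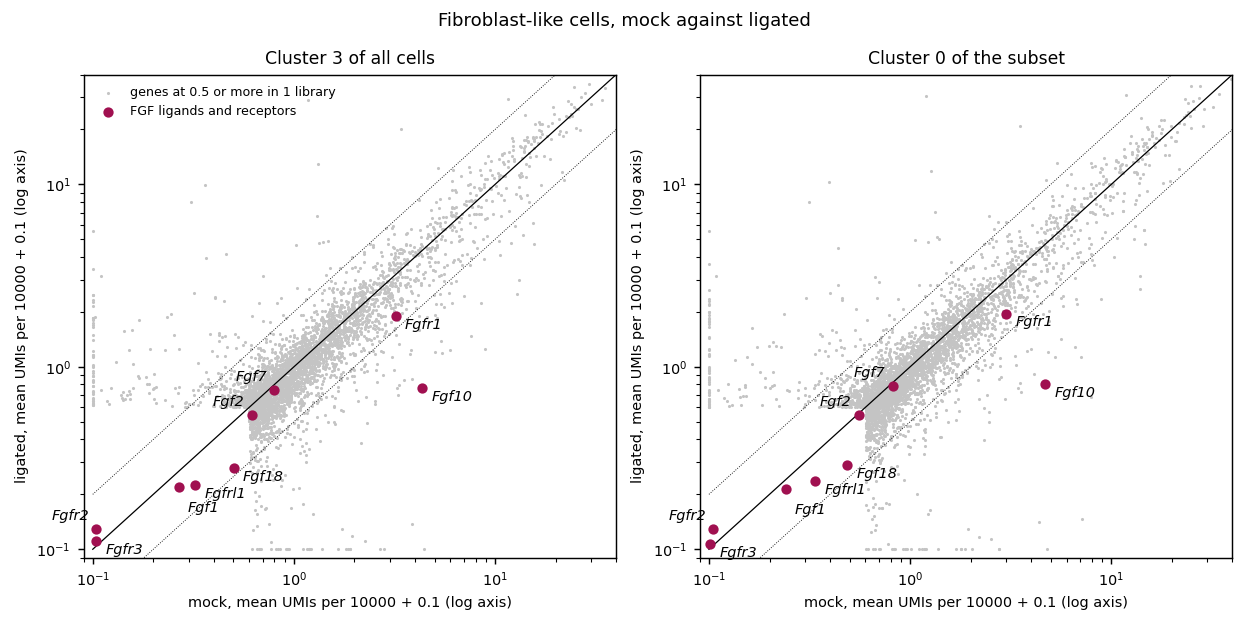
Mean level in the mock library (x axis) against the ligated library (y axis) in UMIs per 10000 plus 0.1, both on log axes, for fibroblast-like cluster 3 (left) and subset cluster 0 (right). Grey points are genes at 0.5 or more in a library, coloured points are the FGF genes, the solid line marks equality and the dotted lines a 2-fold difference. Fgf10 lies well below the lower dotted line in both panels, with differences of -2.51 and -2.55, while Fgf7 and Fgf2 lie close to the line of equality.

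Other cells held little Fgf10. Cluster 3 carried 95.2% of the summed Fgf10 of the mock library and 85.3% of that of the ligated library. In the other compared clusters of all cells the level was at most 0.104 in the mock and 0.123 in the ligated library, both in the ductal-like cluster, where 3 UMIs would give about 0.2 and 0.149. In the subset's endothelial-like cluster the levels were 0.173 and 0.18. That cluster also held fibroblast markers, summed to 20.22 in the mock and 71.01 in the ligated library, and their part in its Fgf10 was not tested. Subset clusters 1 and 4, with 14 and 10 mock cells, were too small to compare and showed 0.654 against 0.143 and 0.592 against 0.107.

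Markers of other cell types moved in the fibroblast-like cluster too. They stood at a median of 3.43% of their library mean in the mock and 9.79% in the ligated library. Summed mural markers were 4.58 and 9.14, macrophage markers 0.21 and 2.18, and acinar markers 8.17 and 0.70. The 10 fibroblast markers summed to 341.5 and 285.1. With these shares of the library means of Fgf10 subtracted, its difference in cluster 3 was -2.52. This adjusts the values only, and the part of the other cell types in the Fgf10 difference was not tested.

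Fgf7, like Fgf10 a ligand of the IIIb form of Fgfr2, kept nearly the same level in the fibroblast-like cells of both libraries. It lies on chromosome 2 (126034658 to 126091185, plus strand). Cluster 3 had 0.699 in the mock (interval 0.588 to 0.825) and 0.649 in the ligated library (0.604 to 0.696), and the difference of -0.09 stood beside a median of -0.06 over all genes at 0.5 or more in that cluster. The intervals overlap. In subset cluster 0 the levels were 0.718 and 0.68. Cluster 3 held 96.2% of the summed mock Fgf7 and 83.4% of the ligated. In the mural-like cluster 6 the level was 0.00579 in the mock (2.79e-06 to 0.0587) and 0.143 in the ligated library (0.0868 to 0.222). The difference of 1.20 was upwards and the intervals do not overlap, but both values are below the 0.5 minimum. The mock value is also under the 0.0384 that 3 UMIs would give. There, markers of other cell types stood at 10.9% and 22.4% of their library means, and at those shares Fgf7 would be at 0.00356 and 0.0176. In the subset's mural-like cluster, Fgf7 was listed at 0 in the mock library and stood at 0.0304 in the ligated one.

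Fgf18, a ligand best known from cartilage and bone growth, was also lower in ligated fibroblast-like cells but stayed under the 0.5 minimum in every compared cluster. It lies on chromosome 11 (33117430 to 33147400, minus strand). Its level in cluster 3 was 0.403 in the mock (interval 0.32 to 0.501) and 0.177 in the ligated library (0.154 to 0.203), 2.28 times higher in the mock, a difference of -0.86. The mock value is the higher one and the intervals do not overlap. Subset cluster 0 gave 0.387 and 0.19, a difference of -0.75. Subset cluster 4, with 10 mock and 17 ligated cells, was too small to compare. Fgf18 stood there at 0.844 (0.308 to 1.84) and 0.329 (0.0821 to 0.88), with overlapping intervals. Cluster 3 held 93.9% and 96.2% of the library sums. In each of clusters 1, 2, 5 and 8 the ligated value came from 1 UMI in 1 cell, and in cluster 4 the mock value did.

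Fgf2, a ligand without a classical secretion signal, was found mainly in fibroblast-like, mural-like and Schwann-like cells. In cluster 3 its level was 0.516 in the mock (interval 0.422 to 0.626) and 0.441 in the ligated library (0.404 to 0.48), a difference of -0.19 with overlapping intervals. In the Schwann-like cluster 9 it was 0.607 in the mock (0.136 to 1.71) and 1.03 in the ligated library (0.811 to 1.3). The mock value there rests on 17 cells and its interval spans the ligated one, so the libraries were not compared. Cluster 3 carried 73.9% of the summed mock Fgf2 and 53.8% of the ligated sum, and cluster 9 carried 7.86% and 29.7%. Mural-like cluster 6 stood at 0.0981 (0.0414 to 0.196) and 0.116 (0.0657 to 0.188) and carried 12% and 5.15%. In subset cluster 0 the levels were 0.456 and 0.444. The gene (chromosome 3, 37348346 to 37410108, plus strand) overlaps Nudt6 and Fgf2os on the opposite strand. How the counting treated strand is not given in the sources used here, so reads of these genes may not be fully separated. The same holds for Fgf10, Fgf1 and Fgfr1, which overlap Gm16263, Arhgap26 and Gm16159 on the opposite strand.

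Fgf1, a ligand that binds every FGF receptor kinase, was highest among the compared clusters of all cells in mural-like cells in the mock library and in ductal-like cells in the ligated library. In mural-like cluster 6 it stood at 0.508 in the mock (interval 0.363 to 0.693) and 0.371 in the ligated library (0.276 to 0.489), a difference of -0.37. The intervals overlap. Fibroblast-like cluster 3 had 0.168 and 0.12. In the subset's mural-like cluster it stood at 0.605 (0.418 to 0.846) and 0.345 (0.224 to 0.509), a difference of -0.66. Markers moved in the mural-like clusters too. In cluster 6 the mural markers summed to 211.9 in the mock and 135.3 in the ligated library, natural killer markers to 0.07 and 4.74 and ductal markers to 1.70 and 7.06. In subset cluster 2 the mural markers summed to 220.5 and 150.4. Their part in the mural-like differences was not tested. No FGF gene was past the size rule in the mural-like clusters, where 1 was tested in each and 9.41% and 8.51% of all genes passed. In endothelial-like cluster 0 Fgf1 was at 0.126 and 0.106, and these many cells carried 63% of the mock and 35.8% of the ligated sum. In the ductal-like cluster it was at 0.113 in the mock (0.0103 to 0.449) and 0.5 in the ligated library (0.24 to 0.917), which before rounding fell just short of the 0.5 minimum. Its difference there was 1.49, from shallow cells with median recovered totals of 1076.5 and 982.5 UMIs, and the intervals overlap. The ductal-like cells are those that escaped the EpCAM depletion.

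**Figure D2:**
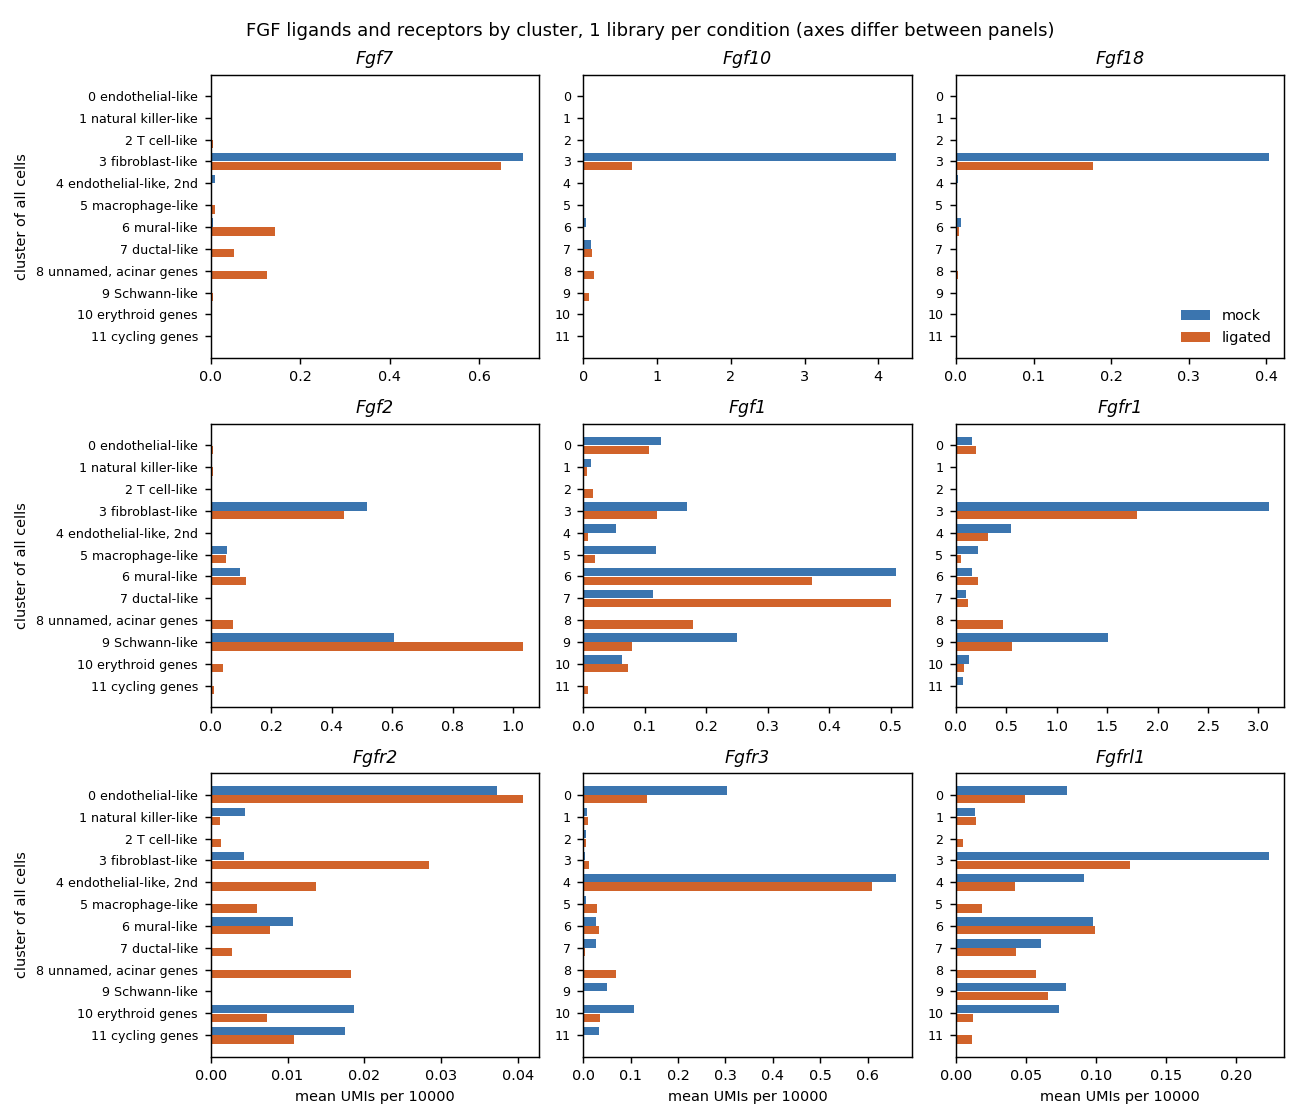
Mean level of each of the 9 FGF genes (x axes, UMIs per 10000, a separate linear scale per panel) in the 12 clusters of all cells (y axes), with 1 bar for the mock and 1 for the ligated library and no error bars. Fgf7, Fgf10 and Fgf18 peak in fibroblast-like cluster 3, Fgf2 in clusters 3 and 9, Fgfr1 in cluster 3 and Fgfr3 in endothelial-like cluster 4, and the Fgf10 bars of cluster 3 read 4.24 and 0.662.

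Of the receptor kinases, Fgfr1 was the one with its highest level in the fibroblast-like cluster of all cells, where Fgf10, Fgf7 and Fgf18 were also highest, and it was lower in the ligated library without reaching the size rule. It lies on chromosome 8 (25513654 to 25575718, plus strand). Cluster 3 had 3.1 in the mock (interval 2.86 to 3.36) and 1.8 in the ligated library (1.73 to 1.88), 1.72 times higher in the mock, a difference of -0.75. The mock value is the higher one and the intervals do not overlap. Subset cluster 0 gave 2.9 and 1.86, a difference of -0.62. In cluster 3, 7.76% of genes listed in both libraries had a lower difference than Fgfr1.

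Endothelial-like cells held Fgfr1 as well. Cluster 4 had 0.546 in the mock (0.41 to 0.711) and 0.318 in the ligated library (0.244 to 0.406), a difference of -0.63, and the intervals fall just short of overlapping. None of the 2 FGF genes tested in cluster 4 was past the size rule, against 6.1% of all genes. Cluster 0 had 0.159 (0.136 to 0.185) and 0.199 (0.178 to 0.223), a difference of 0.21 with overlapping intervals. In the subset's endothelial-like cluster, where 10.5% of all genes were past the rule and the 1 FGF gene tested was not, Fgfr1 stood at 0.477 (0.308 to 0.705) and 0.589 (0.473 to 0.726), again overlapping. The fibroblast markers of that subset cluster summed to 20.22 and 71.01, and their part in its Fgfr1 was not tested. In the macrophage-like cluster 5 it stood at 0.216 in the mock (0.112 to 0.378) and 0.0469 in the ligated library (0.0292 to 0.0711), below the 0.5 minimum, and the ligated value was under the 0.0552 at which markers of other cell types would place it. Schwann-like cluster 9, not compared, had 1.5 and 0.552.

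Fgfr3 was an endothelial gene here. It lies on chromosome 5 (33721674 to 33737068, plus strand). Cluster 4, whose values for it were the highest of any cluster, had 0.66 in the mock (interval 0.51 to 0.841) and 0.609 in the ligated library (0.505 to 0.728), a difference of -0.10 with overlapping intervals. Cluster 0 had 0.302 (0.271 to 0.337) and 0.135 (0.117 to 0.154), 2.24 times higher in the mock, a difference of -0.78. The mock value there is the higher one, the intervals do not overlap and both values are under the 0.5 minimum, in a cluster where 6.6% of all genes were past the rule. The 2 clusters together held nearly all Fgfr3 of the mock library, with 80.2% in cluster 0 and 16.7% in cluster 4. In the ligated library those shares were 48.1% and 39.1%. In the subset's endothelial-like cluster the levels were 0.164 and 0.19.

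Fgfr2, the receptor of Fgf10 and Fgf7 on gland epithelium, was low in every cluster. Endothelial-like cluster 0 had 0.0373 in the mock (interval 0.0267 to 0.0507) and 0.0407 in the ligated library (0.0313 to 0.052) and carried 92.1% and 66.7% of the library sums. In fibroblast-like cluster 3 the levels were 0.00434 and 0.0284. In the ductal-like cluster Fgfr2 was listed at 0 in the mock library, with an interval up to 0.246, and the ligated value of 0.00284 was 1 UMI in 1 cell. In these ductal-like cells 3 UMIs would give about 0.2 in the mock and 0.149 in the ligated library. The annotated span of the gene (chromosome 7, 130162451 to 133123350, minus strand, GENCODE M21) overlaps 36 genes of the same strand, and its values are uncertain for that reason too.

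Fgfrl1, the receptor without a kinase, followed the direction of Fgfr1 in the fibroblast-like cells. It lies on chromosome 5 (108692382 to 108706924, plus strand). Cluster 3 had 0.224 in the mock (interval 0.163 to 0.299) and 0.125 in the ligated library (0.106 to 0.146), a difference of -0.53, and subset cluster 0 had 0.238 and 0.135. The mock values are the higher ones, and all are under the 0.5 minimum. In mural-like cluster 6 the levels were 0.0981 and 0.0994, which do not differ beyond counting. Cluster 0 held 63.5% of the mock and 31% of the ligated sum.

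The count over all pairs of gene and cluster was as follows. In the 9 compared clusters of all cells, 7 of 81 pairs reached the 0.5 minimum, of which 1 was past the size rule downwards and 0 upwards. In the 3 subset clusters 5 of 27 reached it, with 1 past it downwards and 0 upwards. Of the 10 genes, 6 reached the minimum in a compared cluster (Fgf1, Fgf2, Fgf7, Fgf10, Fgfr1 and Fgfr3). No FGF gene reached it in the natural killer-like, T cell-like, macrophage-like, ductal-like and erythroid-gene clusters, where 4.56%, 5.34%, 8.48%, 26.5% and 25.2% of all genes were past the rule.

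**Figure D3:**
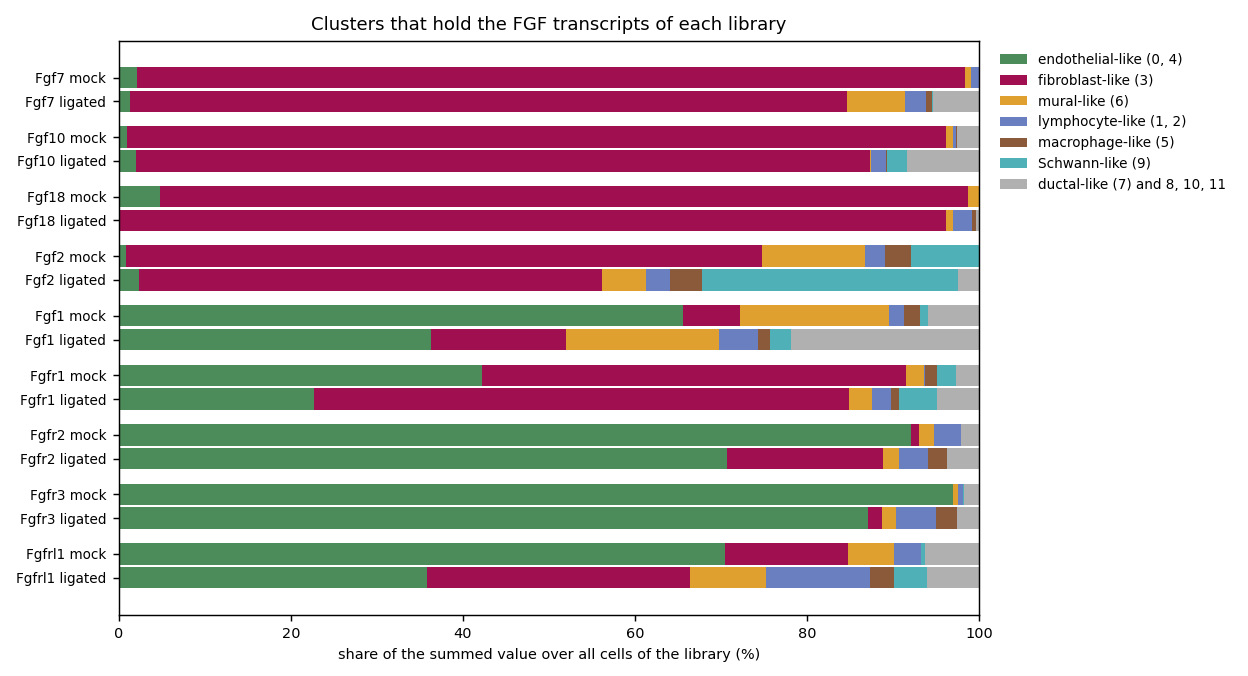
Share of each gene's summed level over all cells of a library (x axis, %) held by each class of clusters, with 1 bar per gene and library (y axis). Fibroblast-like cells hold at least 83.4% of Fgf7, Fgf10 and Fgf18 in both libraries, and endothelial-like cells hold most of the Fgfr2 and Fgfr3.

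The libraries differ in their mix of cells as well as in level. Fibroblast-like cells were 188 of 4199 mock cells and 1149 of 11406 ligated cells after the depletion. Over the whole library Fgf10 stood at 0.199 in the mock and 0.0782 in the ligated, a difference of -0.75. With the ligated levels weighted to the mock mix of cells it was -1.09, and with equal weight for each cluster -1.33. The added 0.1 is large beside these library levels and shrinks the differences. Without it the mock level of Fgf10 was 2.55 times the ligated one, 4.86 times at the mock mix and 4.24 times with equal weights. Fgf7 stood at 0.0325 and 0.0784, a difference of 0.43 that shrank to 0.09 at the mock mix. Fgf2 went from a difference of 0.48 to 0.05 in the same way. Without the added 0.1, the ligated level of Fgf7 was 2.41 times the mock one, and 1.26 times at the mock mix. For Fgf2 it was 2.64 times and 1.15 times. Most of the library-level rise of Fgf7 and Fgf2 was absent at the mock mix. Fgfr3 stood at 0.212 and 0.0725, a difference of -0.86 at each library's own mix, -0.55 at the mock mix and -0.18 with equal weights. Its mock level was 2.93, 1.86 and 1.31 times the ligated one in these 3 weightings. Fgfr1 stood at 0.282 and 0.292, differing by 0.04 at each library's own mix, by -0.19 at the mock mix and by -0.51 with equal weights.

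Genes of the wider pathway were followed through 6 lists with 61 genes, of which 51 had values. Among the 9 feedback inhibitors, 5 reached the minimum in fibroblast-like cluster 3 with 0 past the rule either way and a median difference of -0.08, beside -0.06 for all genes there. In subset cluster 0, 1 of 5 was past it and lower: Spry2, a Sprouty inhibitor of receptor tyrosine kinase signalling, stood at 0.654 in the mock and 0.272 in the ligated library, a difference of -1.02. In mural-like cells Spry2 was past the rule and lower too, from 0.977 to 0.412 in cluster 6 (1 of 5, list median -0.51 beside -0.07 for all genes) and from 1.15 to 0.482 in subset cluster 2 (1 of 5, list median -0.32 beside -0.03). The mural markers themselves summed to 211.9 and 135.3 in cluster 6 and to 220.5 and 150.4 in subset cluster 2, and their part in these differences was not tested. In the subset's endothelial-like cluster its relative Spry4 went from 1.21 to 0.433, a difference of -1.30 (1 of 5, list median -0.67 beside -0.04). The summed fibroblast markers of that cluster were higher in the ligated library, as given above, and their part in its Spry4 was not tested. Spry4 was lower in all 7 clusters shown in the heat map, by -0.15 to -1.30, but among these it was past the rule in that 1 alone. The subset clusters among the 7 come from the same libraries as the others, so these are no separate observations. How many of all genes were lower in all 7 was not counted. Outside the heat map Spry4 was past the rule in the erythroid-gene cluster, from 0.515 to 0.115. Spry1 in contrast stood at 2.06 and 1.95 in cluster 3.

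Of the 3 Etv transcription factors, targets of FGF and MAP kinase signalling, Etv5 was past the rule and lower in endothelial-like cluster 0, from 0.637 to 0.209, a difference of -1.25, and in the subset's endothelial-like cluster, from 0.778 to 0.292. Etv5 was the 1 member of its list that reached the minimum in either cluster. The summed fibroblast markers of that subset cluster were higher in the ligated library, and their part in its Etv5 was not tested. In cluster 3, Etv1 was at 0.695 and 0.498 and none was past the rule. These inhibitors and Etv genes respond to other receptor tyrosine kinases as well as to FGF receptors.

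**Figure D4:**
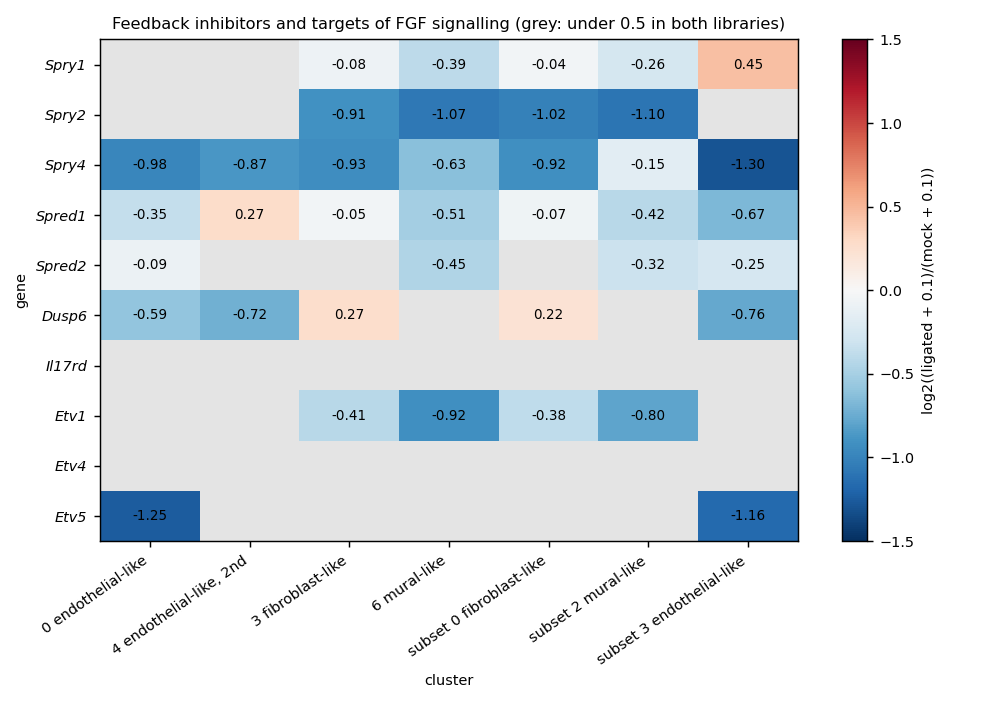
Difference log2((ligated + 0.1)/(mock + 0.1)) of feedback inhibitors and Etv targets (y axis) in the fibroblast-like, mural-like and endothelial-like clusters compared (x axis), as colour and number, with grey where both values are under 0.5. Spry2, Spry4 and Etv5 hold the differences of -1 or below, and Spry1 lies between -0.39 and 0.45.

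Among the 15 co-receptors, carriers and heparan sulfate proteoglycans, 6 reached the minimum in cluster 3, where 1 was past the rule and lower, with a list median of -0.41 beside -0.06 for all genes. That gene was Gpc3, a glypican anchored to the cell surface, at 0.677 in the mock and 0.155 in the ligated library, a difference of -1.61. In subset cluster 0 it stood at 0.505 and 0.134 (1 of 7 past the rule, list median -0.50 beside -0.06). In mural-like cluster 6 the syndecan Sdc1 went from 3.29 to 1.3 (1 of 5, list median -0.38 beside -0.07), and in subset cluster 2 went from 3.69 to 1.68 (1 of 4, list median -0.40 beside -0.03). The summed mural markers of both clusters were lower in the ligated library too, as given above, and their part in the Sdc1 differences was not tested. In endothelial-like cluster 4 Hspg2, which encodes the basement membrane proteoglycan perlecan, went from 4.95 to 2.16 (1 of 2, list median -0.89 beside -0.003). Of 9 genes that build or edit heparan sulfate chains, Ndst1, an N-sulfating enzyme, was past the rule and higher in endothelial-like cluster 0, from 0.438 to 1.06 (1 of 2, list median 0.58 beside 0.01), and none of 6 was past it in cluster 3. The signal relay list of 8 adaptor and effector genes had 0 past the rule in every compared cluster. Of the 17 other FGF ligand genes, 8 had values and none reached the minimum in a compared cluster.

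The FGF genes compared in pattern were Fgf2, Fgf7, Fgf10, Fgfr1 and Fgfr3. The genes whose pattern over the 24 cluster means of both libraries was most like theirs were picked by Pearson correlation among 6120 genes. These are descriptions, since the points share 2 libraries and their depth. For Fgf10 they were Sfrp2, which encodes a secreted Wnt modulator (r = 0.955), the dipeptidase gene Dpep1 (0.952) and the purinergic receptor gene P2ry1 (0.946). In cluster 3 Sfrp2 stood at 1.19 and 0.599, Dpep1 at 13.6 and 5.15 and P2ry1 at 1.59 and 0.779. The choice by likeness used these same values, so their shared direction with Fgf10 is no separate result. For Fgf7 they were Srpx2 (0.982), the EGF receptor gene Egfr (0.98) and the collagen VI gene Col6a6 (0.972). For Fgf2 they included Col27a1 (0.975) and Zfhx4 (0.966), both of which peaked in Schwann-like cluster 9. For Fgfr1 they were Fkbp7 (0.921), Pcdh7 (0.917) and Scd1 (0.905), and for Fgfr3 they were Tmem44 (0.934), Slc26a10 (0.934) and Syt15 (0.931), which peaked in cluster 4. Among Fgf2, Fgf7, Fgf10, Fgfr1 and Fgfr3 the closest pair was Fgf7 and Fgf10 at 0.885, followed by Fgf2 and Fgfr1 at 0.779. Fgfr1 and Fgfr3 stood at 0.195. The other FGF genes were not paired, so pairs that include them are not ranked here.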

How the data were processed

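Droplet single-cell RNA libraries of 1 mock and 1 ligated sample were analysed from tables of cluster means. The authors used Cell Ranger 6.0.1 and Seurat with the mm10 build, per the submitters' processing notes; filters on cells, doublet treatment and clustering settings are not given in the sources used here. The deposited values (unit other: neither counts nor CPM) are linear means of UMIs per 10000 per cell: each column sums to 10000, none is below 0, and each joint value is a weighted mean of the split values. From those weights the cell numbers were recovered, a method tested on simulated data. Values above 0 in the ligated library alone were held by 3150 genes, and in the mock library alone by 684; the 9 FGF genes with values were above 0 in both. Dates had replaced 21 gene names, which were restored from row order; 0 columns were left without a sample. Clusters were named from marker lists. Positions came from GENCODE M21 and promoters from RefSeq.

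The FGF genes and all lists were chosen with earlier results of these data known. Named besides the FGF genes are pathway genes past the size rule in fibroblast-like, mural-like or endothelial-like clusters, up to 6 per list, and for each FGF gene at 0.5 in a cluster of each library the 3 genes most like it, of which 1 is not reported here. Spry1 and Etv1, and the genes named under other observations, were named after their values were seen. The level at which markers of other cell types would place a gene is their median share of the library mean times the gene's library mean. Alternatives changed the pseudocount, the minimum, the size, the scaling and the clusters, or centred the differences on their median in the cluster. Another subtracted that level from each value, with results below 0 set to 0. Library levels were also weighted by the mock mix of cells or equally over clusters. Python 3.11.15, numpy 2.4.6, pandas 2.3.3, scipy 1.17.1 and matplotlib 3.10.9 were used.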

Additional observations from a re-analysis of the deposited data

How the results depend on the processing

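With 1 library per group no library could be left out. No paired analysis was possible because each condition has 1 library. The counts that follow are of pairs of gene and cluster, and the subset comes from the same libraries. The count past the size rule and lower was 2 (Fgf10 in cluster 3 and subset cluster 0). It rose to 6 with a size of 0.5 (adding Fgfr1 in clusters 3 and 4 and subset cluster 0, and Fgf1 in subset cluster 2), to 8 with all clusters, which adds clusters with fewer than 50 cells, and to 3 with a minimum of 0.1. The count past it and higher was 0, and became 2 with a minimum of 0.1 (Fgf7 in cluster 6 and Fgf1 in cluster 7) and 1 after rescaling to genes listed in both libraries (Fgf1 in cluster 7, which lies at the minimum). Of 40 differences, 38 kept their sign over the 5 settings of value. The exceptions were Fgf2 in subset cluster 0 (-0.04 to 0.03) and Fgfr1 in cluster 7 (-0.20 to 0.30). Fgf2 changed sign when centred on the median difference. Fgfr1 did so when the level at which markers of other cell types would place it was subtracted. With that level subtracted, the difference of Fgf10 was -2.52 in cluster 3 and -2.55 in subset cluster 0. The settings that change only the pseudocount cannot reverse a sign, so they add nothing to this count. Fgf10 ran from -2.66 to -1.66 in cluster 3 and from -2.69 to -1.72 in subset cluster 0. With a pseudocount of 0.01, differences of genes under the 0.5 minimum grew in both directions. Fgfr3 in cluster 0 reached -1.11, Fgf18 in cluster 3 -1.14, Fgfr1 in cluster 5 -1.99 and Fgf1 in cluster 5 -2.16. Upwards, Fgf7 in cluster 6 reached 3.28, Fgf2 in subset cluster 3 2.29, Fgf1 in cluster 7 2.05 and Fgf7 in subset cluster 3 1.51. All 34 cell numbers were the same by least squares. Both ways used the same cluster totals and joint values that are weighted means of the split values, so this is no separate check. Depth limits the clusters with few or shallow cells: 3 UMIs would give about 0.56 in mock cluster 9, 0.336 in mock cluster 8, 0.425 in mock subset cluster 4 and 0.2 in mock cluster 7.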

Other observations

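Of the FGF ligand genes outside the group described, Fgf9 stood at 0.203 UMIs per 10000 in the mock and 0.106 in the ligated ductal-like cells, where 3 UMIs would give about 0.2 and 0.149. Fgf13 stood at 0.0204 and 0.156 in the cycling cluster, which held 22 mock cells and was not compared, and where 3 UMIs would give about 0.205 and 0.0746. In the Schwann-like cluster Fgf5 and Fgf11 were listed at 0 in the mock library, which held 17 cells there, and stood at 0.105 and 0.0831 in the ligated one. Fgfbp1, an FGF carrier gene, stood at 0.123 and 0.423 in the ductal-like cluster, the first under the level of 3 UMIs given above.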
